A study of Rattus norvegicus with 3 samples.

Results

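Genes of the Wnt pathway were followed through the life of the rat ameloblast, the epithelial cell that makes enamel: 54 of the 16516 genes in the authors' deposited table. The members are all genes whose symbols fall in the families of Wnt ligands, Frizzled receptors, the co-receptors Lrp5, Lrp6, Ror1 and Ror2, R-spondins with their receptors and linked ubiquitin ligases, the Sfrp and Dkk inhibitors with Wif1, Notum and Apcdd1, the feedback genes Axin and Nkd, and the TCF/LEF transcription factors. They were picked by name and not by measured values. Axin1 and Znrf3, also named by that rule, were not analysed here. RNA came from 3 groups of cells that were dissected out of rat enamel organs: the cervical loop, the secretory stage and the maturation stage of ameloblasts. The donors were 5 rats of the Wistar Hannover strain, untreated and unmutated as far as the labels say, and the labels give neither age nor sex. Each group is 1 sample, which holds 1 mean per gene made by the authors over their libraries. No spread between rats can stand beside a mean, and replicate error enters only through the authors' p-values. The authors' FDR is the false discovery rate in the authors' deposited table, a Benjamini-Hochberg adjustment over all genes, and a gene passed at 0.05 or less. Folds are ratios of the authors' means. The unit of the means is not stated, and it is not known whether gene length entered, so levels are compared within a gene and never between genes.

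Wnt proteins are lipid-modified secreted signals. They bind Frizzled receptors together with Lrp5 or Lrp6, which shuts off the Axin and Apc complex that destroys beta-catenin, and beta-catenin then works with TCF/LEF factors on target genes. Other Wnts act through Ror1, Ror2 and planar polarity proteins without beta-catenin. R-spondins bind Lgr receptors and keep Frizzled on the cell surface by removing the ubiquitin ligases Rnf43 and Znrf3. Many brakes are themselves Wnt targets, among them Axin2, Nkd1, Notum and Dkk1. In rodents the incisor grows throughout life from epithelial stem cells of the cervical loop, and in humans mutations in WNT10A or AXIN2 cause missing teeth.

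The stage labels were checked on genes outside the pathway. Mki67, of dividing cells, had authors' means of 289, 38.8 and 35.3 in cervical loop, secretory and maturation cells, the matrix gene Amelx 1152, 37121 and 217, and the late protease gene Klk4 2.25, 19.3 and 142. Of 9 measured epithelial markers, 6 were higher and 2 lower in maturation than in cervical loop cells: Krt14, at 1691 against 295, was among the higher ones, and Krt18, at 0.553 against 9.73, and Epcam, at 20.3 against 37.0, were the lower ones. For other cell types the means of a marker list were summed within each stage, and such a sum follows its most abundant genes. The 14 mesenchyme markers, Col1a1 among them, had summed means of 11734, 11903 and 16091, with 0 of them at or below 0.1, the floor under which no fold is given. Summed means of 8 odontoblast and bone markers were 1134, 519 and 760, of 7 endothelial markers 158, 208 and 312, of 10 myeloid markers 275, 230 and 731, and of 10 muscle and pericyte markers 265, 202 and 276. Many pathway genes are also used by mesenchyme and vessels, and in such bulk samples fewer cells of a type and less RNA per cell cannot be told apart. The median gene of the table had a log2 ratio of -0.14 in secretory against cervical loop cells, of 0.0046 in maturation against secretory cells and of -0.12 in maturation against cervical loop cells, and changes are to be read relative to these shifts.

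Of the 54 genes, 44 passed in at least 1 pair of stages, which was 81.5% of them against 72.1% of all genes. In secretory against cervical loop cells 12 were higher, 15 were lower and 27 did not pass, where 16.5% of all genes were higher and 25.2% were lower. In maturation against secretory cells 11 were higher and 19 lower, where 21.8% of all genes were higher and 21.1% were lower. In maturation against cervical loop cells 13 were higher and 22 lower, beside 24.1% and 33.7% of all genes. The median log2 ratios of the 54 genes in these pairs were -0.0012, -0.25 and -0.35, in the same order. The first pair and the last share the cervical loop libraries, and the other overlaps are alike, so the pairs are not independent of one another. The shares of all genes given here are also the ones against which the counts of each gene family and list below are to be read.

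**Figure D1:**
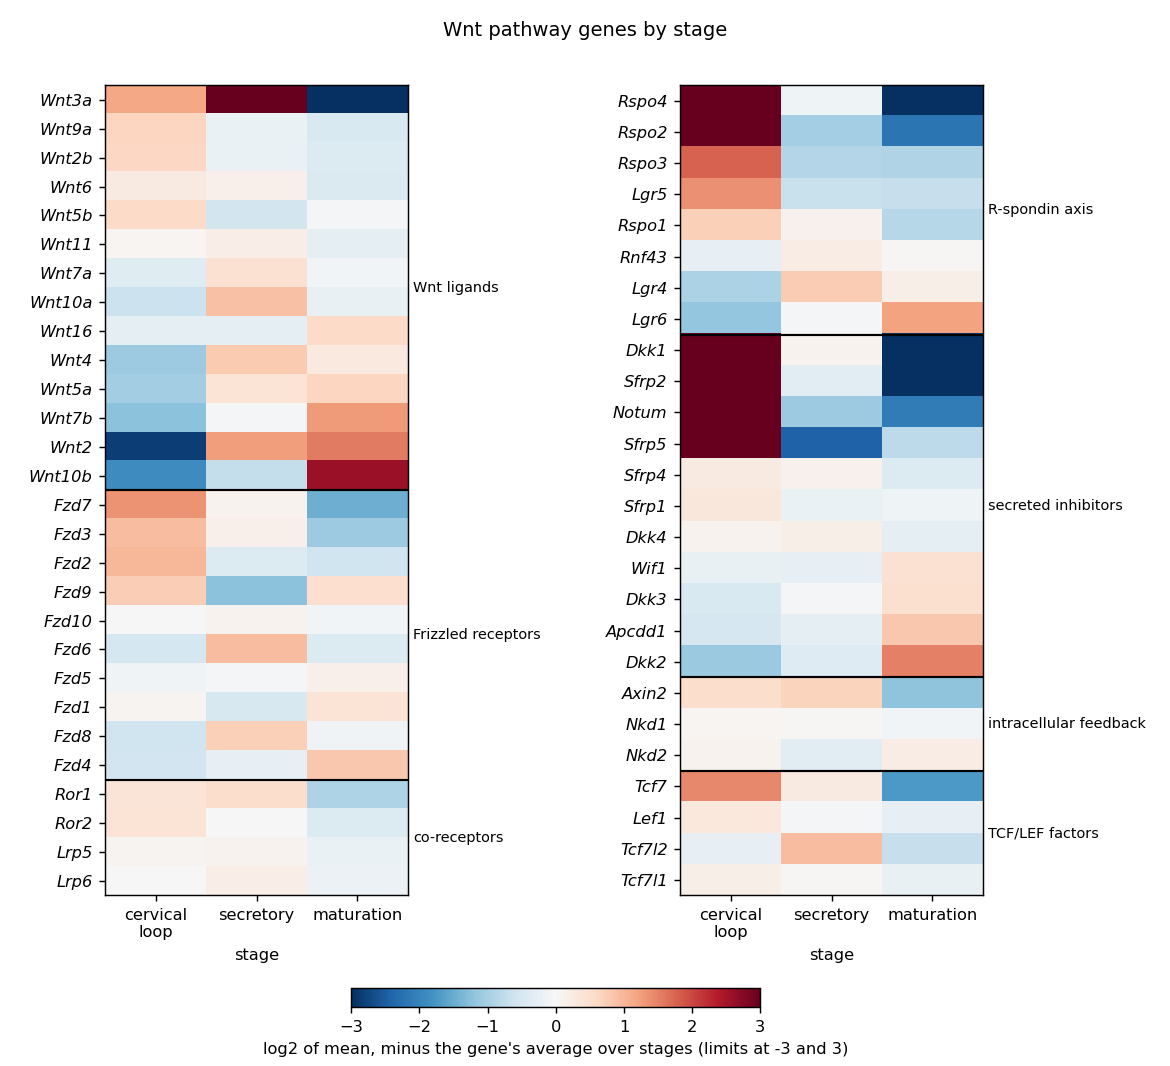
Each row is a gene and each column a stage; colour gives the log2 of the authors' mean minus the gene's average over the 3 stages, with means at or below 0.1 set to 0.1 and colours limited at -3 and 3. R-spondins and several secreted inhibitors (Sfrp2, Sfrp5, Notum, Dkk1) are red in the cervical loop, while Dkk2, Wnt7b and Wnt10b are red in maturation.

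Some genes passed against both other stages. Higher in cervical loop cells than in both other stages were 13 genes (24.1%), beside 18.6% of all genes: Dkk1, Fzd2, Fzd3, Fzd7, Lgr5, Notum, Ror2, Rspo2, Rspo3, Rspo4, Sfrp2, Sfrp5 and Tcf7. Higher in secretory ameloblasts than in both others were 5 genes (9.26%), namely Fzd6, Fzd8, Tcf7l2, Wnt10a and Wnt7a, beside 7.99% of all genes. Higher in maturation ameloblasts than in both others were 8 genes (14.8%), namely Apcdd1, Dkk2, Dkk3, Fzd4, Lgr6, Wif1, Wnt10b and Wnt7b, beside 14.6% of all genes. These 2 shares lie near those of all genes. Lower in maturation than in both others were 12 genes (22.2%), among them Axin2, Ror1, Wnt3a and Tcf7, beside 13.7% of all genes. Fzd3, Fzd7, Ror2, Rspo4, Sfrp2 and Tcf7 fell at each step and over both, and Dkk2, Dkk3, Fzd4 and Wnt7b rose at each step and over both, except that the first step of Dkk3 and of Fzd4 turned downward when each stage was scaled to its own total (log2 ratios of -0.067 and -0.16).

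**Figure D2:**
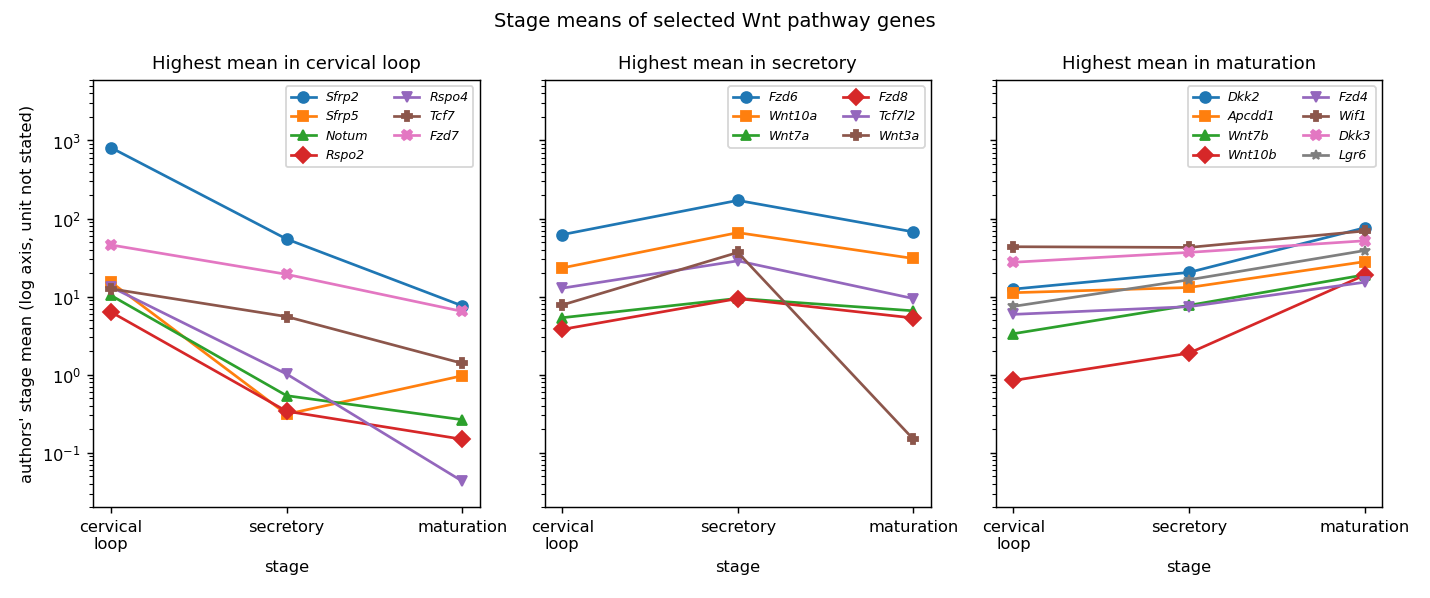
Authors' stage means on a log axis for 7 of the 13 genes highest in the cervical loop, for the 5 genes that passed as highest in secretory cells together with Wnt3a, and for the 8 that passed as highest in maturation. Sfrp2 drops to 7.62 in maturation, against 809 in the cervical loop, and Wnt3a has its highest mean, 36.8, in secretory cells and its lowest, 0.149, in maturation.

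Among the ligands, different Wnt genes had their highest mean at different stages. Of 14 Wnt genes, 5 rose, 1 fell and 8 did not pass in secretory against cervical loop cells, 2 rose and 4 fell in maturation against secretory cells, and 5 rose and 3 fell in maturation against cervical loop cells. Wnt3a, which acts through beta-catenin, had authors' means of 7.81, 36.8 and 0.149 in cervical loop, secretory and maturation cells. Its maturation mean was far under the other means, 247-fold lower than in secretory cells (authors' FDR = 0.000489) and 52.5-fold lower than in cervical loop cells (authors' FDR = 0.000756). With 1 added to both means these folds were 32.9 and 7.67. The secretory mean of Wnt3a was 4.71-fold that of the cervical loop without passing (authors' FDR = 0.0564).

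Wnt10a and Wnt7a were highest in the secretory stage. Wnt10a, the gene linked to missing teeth in humans, had means of 23.3, 66.0 and 30.8 across cervical loop, secretory and maturation cells in the authors' table. It was 2.83-fold higher in secretory than in cervical loop cells (authors' FDR = 0.0128) and 2.14-fold lower in maturation than in secretory cells (authors' FDR = 0.0417). Wnt7a, a ligand known from limb patterning and nerve, stood at 5.36, 9.49 and 6.58 as authors' means over the same stages. It was 1.77-fold higher in secretory than in cervical loop cells (authors' FDR = 0.007) and 1.44-fold lower in maturation than in secretory cells (authors' FDR = 0.0231). For both genes maturation and cervical loop cells did not differ past the threshold (authors' FDR = 0.2 and authors' FDR = 0.129).

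Wnt4 and Wnt5a were lower in the cervical loop than in both ameloblast stages. Wnt4, a ligand that shapes epithelial and stromal tissues, had authors' means of 23.1, 85.7 and 60.8 over the 3 stages in order. It was 3.71-fold higher in secretory cells (authors' FDR = 0.00258) and 2.64-fold higher in maturation cells (authors' FDR = 0.00468) than in cervical loop cells. Wnt5a, the main ligand of Ror2 and of signalling without beta-catenin, had authors' means of 31.5, 87.4 and 101 in the same order. It was 2.78-fold higher in secretory cells (authors' FDR = 0.00182) and 3.22-fold higher in maturation cells (authors' FDR = 0.000481) than in cervical loop cells. Between maturation and secretory cells neither gene passed (authors' FDR = 0.12 for Wnt4 and authors' FDR = 0.283 for Wnt5a).

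Wnt7b and Wnt10b were highest in maturation. Wnt7b, a ligand of developing epithelia and bone, rose at each step, with authors' means of 3.35, 7.73 and 19.0 in cervical loop, secretory and maturation cells. The gain was 2.31-fold in secretory over cervical loop cells (authors' FDR = 0.00284) and 2.46-fold in maturation over secretory cells (authors' FDR = 0.00102). Wnt10b, a beta-catenin ligand known in hair follicle and fat, had authors' means of 0.842, 1.89 and 18.8. Its rise came in maturation, 9.97-fold over secretory cells (authors' FDR = 0.00334; 6.86-fold with 1 added to both means) and 22.3-fold over cervical loop cells (authors' FDR = 0.00105; 10.8-fold with 1 added). Wnt2 was low throughout, at 0.124, 2.10 and 2.60 as authors' means, and was 20.9-fold higher in maturation than in cervical loop cells (authors' FDR = 0.00741), or 3.2-fold with 1 added to both means. Beside the genes that rose in maturation, 8 of 10 myeloid markers and 5 of 14 mesenchyme markers were also higher in maturation than in the secretory stage, with 0 of either lower, where 21.8% of all genes were higher. Of 10 muscle and pericyte markers, 3 were higher and 2 lower in that pair, with a median log2 ratio of 1.84. The higher ones were Rgs5, Cspg4 and the muscle gene Tnni1, the last at 21.6 in maturation against 0.284 in secretory cells (authors' FDR = 0.000999). The lower ones were Acta2, at 21.9 against 54.5 (authors' FDR = 0.0116), and Tagln, at 35.8 against 77.0 (authors' FDR = 0.0117). The other 5 did not pass, and the median includes them. The part of these markers in the results was not tested.

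Of the other ligands, 4 passed in 1 pair each. Wnt5b was 2.19-fold lower in secretory cells, with a mean of 1.59, than in cervical loop cells, with a mean of 3.48 (authors' FDR = 0.0233). Wnt11 was 1.38-fold lower in maturation cells, at 8.50, than in secretory cells, at 11.8 (authors' FDR = 0.0438). Wnt6 and Wnt9a were 1.63-fold and 2.13-fold lower in maturation than in cervical loop cells (authors' FDR = 0.0385 and authors' FDR = 0.0292), with maturation means of 5.95 and 1.00 against 9.72 and 2.13. Wnt2b, with authors' means of 5.10, 2.86 and 2.48, and Wnt16, with 0.0806, 0.0984 and 0.180 and so at or near the floor, passed in no pair.

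**Figure D3:**
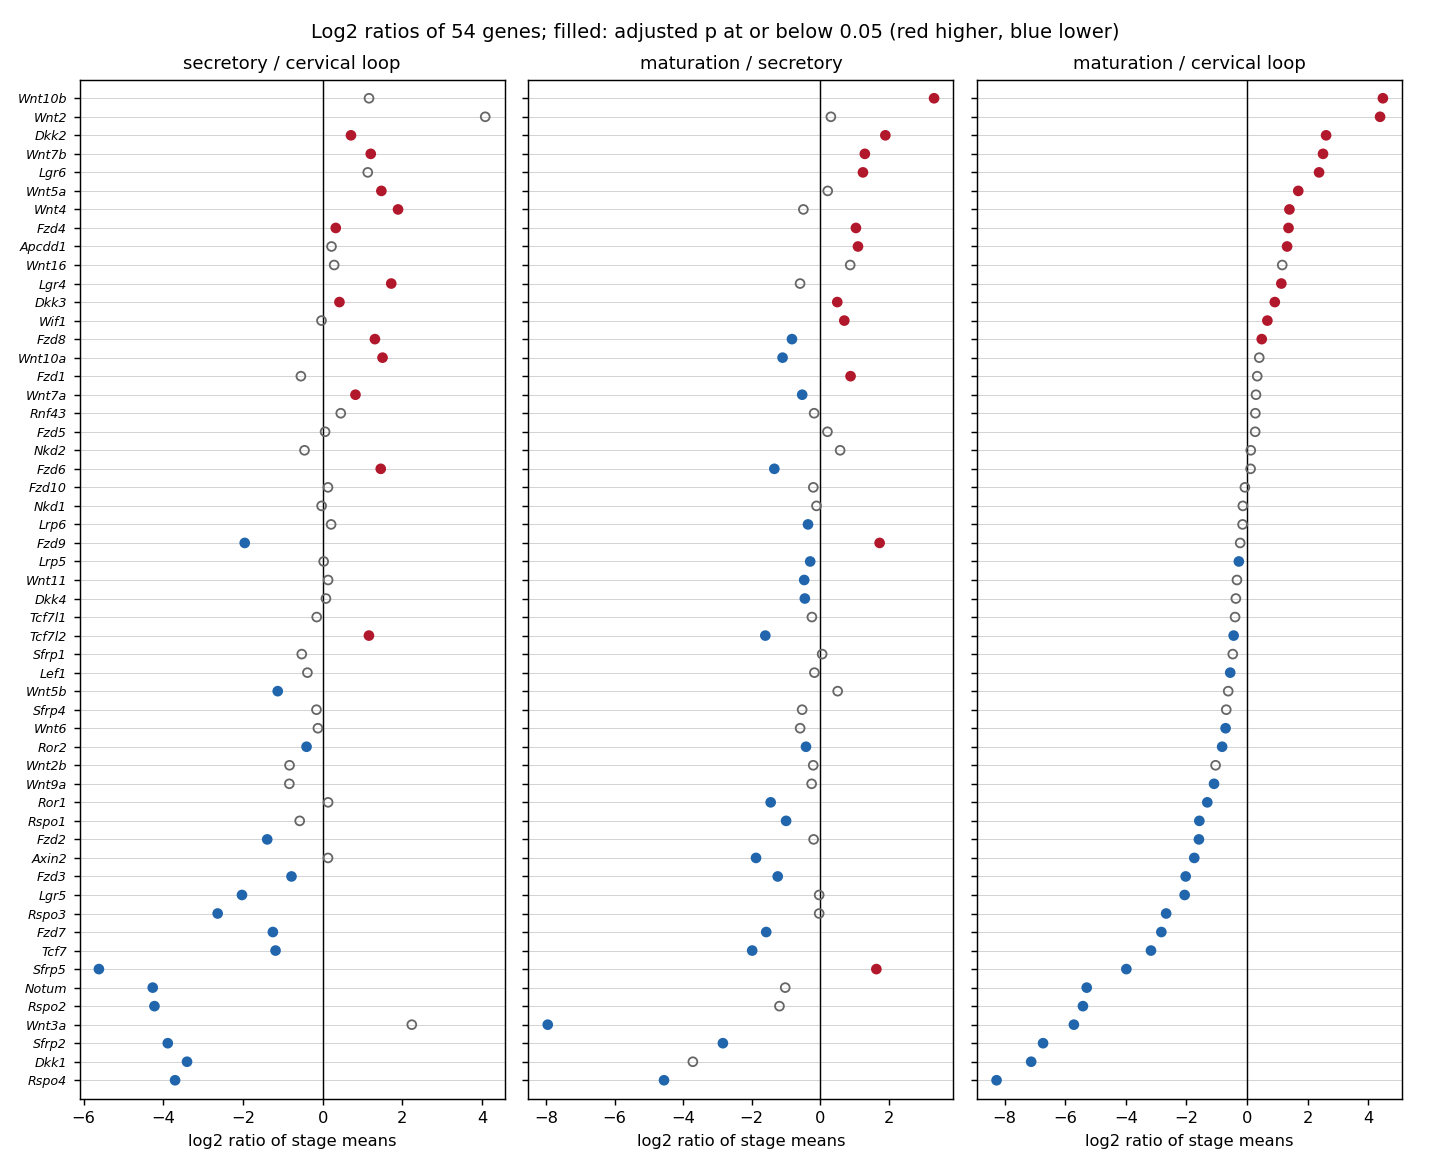
Log2 ratios of the authors' stage means for all 54 genes, 1 panel per pair of stages, ordered by the ratio of maturation to cervical loop; filled points passed (red higher, blue lower in the first-named stage) and open points did not. In the last panel 13 points are red and 22 are blue; Rspo4, at the bottom, and Wnt16 have a mean under the floor of 0.1, so their positions are not reliable folds.

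Frizzled genes, which encode the receptors themselves, included some that rose and some that fell in each pair. Of 10 measured, 3 rose and 4 fell in secretory against cervical loop cells, 3 rose and 4 fell in maturation against secretory cells, and 2 rose and 3 fell in maturation against cervical loop cells. In these pairs 16.5%, 21.8% and 24.1% of all genes were higher, and 25.2%, 21.1% and 33.7% were lower. Fzd7, a receptor of stem and progenitor cells in several epithelia, had authors' means of 45.9, 19.3 and 6.46 in cervical loop, secretory and maturation cells. It fell at each step, 2.38-fold in secretory against cervical loop cells (authors' FDR = 0.000979) and 2.98-fold in maturation against secretory cells (authors' FDR = 0.000357). Fzd3, known from axon guidance and planar polarity, followed the same order with authors' means of 31.8, 18.5 and 7.82 (4.07-fold lower in maturation than in cervical loop cells, authors' FDR = 0.000116). Fzd2 fell in secretory cells, to 13.5 against 35.5 in cervical loop cells (2.63-fold, authors' FDR = 0.001), and stood at 11.8 in maturation, which did not differ from secretory past the threshold (authors' FDR = 0.364).

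Fzd6, which works with Fzd3 in planar polarity in the mouse, was highest in secretory ameloblasts. Its authors' means were 62.2, 171 and 67.4, that is 2.75-fold higher in secretory than in cervical loop cells (authors' FDR = 0.00129) and 2.53-fold lower in maturation than in secretory cells (authors' FDR = 0.00129). Maturation and cervical loop cells did not differ past the threshold (authors' FDR = 0.463). Fzd8 was also highest in secretory cells, with authors' means of 3.80, 9.43 and 5.32 (2.48-fold higher in secretory than in cervical loop cells, authors' FDR = 0.00143, and 1.77-fold lower in maturation than in secretory cells, authors' FDR = 0.00549). Unlike Fzd6, it was also higher in maturation than in cervical loop cells (1.4-fold, authors' FDR = 0.0222).

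Fzd4, which serves as the norrin receptor of vessels as well as a Wnt receptor, went the other way and was highest in maturation. Its authors' means were 5.92, 7.43 and 15.3, a 2.06-fold rise in maturation over secretory cells (authors' FDR = 0.000421) and a 2.58-fold rise over cervical loop cells (authors' FDR = 0.000117). Of 7 endothelial markers, 4 were higher in maturation than in the secretory stage and 6 were higher in maturation than in cervical loop cells, with 0 lower in either pair and 0 at or below the floor. The part of these markers in the change of Fzd4 was not tested. Fzd1 was 1.84-fold higher in maturation, at 80.6, than in secretory cells, at 43.7 (authors' FDR = 0.00699). Fzd9 was below 1 in every stage (0.447, 0.115 and 0.382) and lowest in secretory cells. Fzd5, between 5.27 and 6.34, and Fzd10, between 1.85 and 2.14, passed in no pair.

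All 4 co-receptor genes were lower in maturation than in secretory ameloblasts. When each stage was scaled to its own total, Lrp5 alone turned. That scaling moved every log2 ratio of this pair upward by the same amount, from -0.30 to 0.044 for Lrp5. It left only small falls for Lrp6 and Ror2, whose log2 ratios before scaling were -0.36 and -0.42, against -1.45 for Ror1. Ror1 and Ror2 encode receptor tyrosine kinases for Wnt5a-like signals. Ror1 had authors' means of 19.4, 21.3 and 7.82 in cervical loop, secretory and maturation cells, 2.73-fold lower in maturation than in secretory cells (authors' FDR = 0.000451). Ror2 fell at each step, with authors' means of 23.3, 17.6 and 13.2 (1.77-fold lower in maturation than in cervical loop cells, authors' FDR = 0.00164). Lrp5 and Lrp6, the beta-catenin co-receptors, moved little. Lrp5 was 1.23-fold lower in maturation cells, at 26.5, than in secretory cells, at 32.6 (authors' FDR = 0.0233), with a log2 ratio of 0.044 under that scaling. Lrp6 was 1.28-fold lower in maturation cells, at 61.5, than in secretory cells, at 78.9 (authors' FDR = 0.018).

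All 4 R-spondin genes had their highest mean in the cervical loop, and Lgr4 and Lgr6, which encode R-spondin receptors, had their lowest mean there. Lgr5, another such receptor gene, had its highest mean there, at 0.427. In secretory against cervical loop cells Rspo1 and Lgr6 did not pass (authors' FDR = 0.129 and authors' FDR = 0.655). Of 8 genes of this axis, 1 rose and 4 fell in secretory against cervical loop cells, 1 rose and 2 fell in maturation against secretory cells, and 2 rose and 5 fell in maturation against cervical loop cells. Rspo4, which in humans is needed for nails, had authors' means of 13.3, 1.02 and 0.0432 in cervical loop, secretory and maturation cells. It was 13.0-fold lower in secretory than in cervical loop cells (authors' FDR = 0.00331), or 7.08-fold with 1 added to both means, and its maturation mean lay under the floor, so no fold is given (authors' FDR = 0.00155 against secretory cells). Rspo2, a limb and lung R-spondin, had authors' means of 6.35, 0.340 and 0.149 (18.7-fold lower in secretory than in cervical loop cells, authors' FDR = 0.00187, or 5.48-fold with 1 added to both means). The authors' transcript means of Rspo2 for that pair summed to 5.98 in cervical loop and 1.94 in secretory cells, a smaller fall. Rspo3 fell to 0.198 in secretory and 0.194 in maturation cells, against 1.23 in cervical loop cells (authors' FDR = 0.0182 and authors' FDR = 0.0102), which with 1 added to the means was 1.86-fold and 1.87-fold lower. Rspo1 fell later, with authors' means of 14.7, 9.83 and 4.92, and was 2.98-fold lower in maturation than in cervical loop cells (authors' FDR = 0.00269).

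Lgr4, the broadly used R-spondin receptor, had authors' means of 33.3, 109.8 and 72.9. It was 3.3-fold higher in secretory cells (authors' FDR = 0.00288) and 2.19-fold higher in maturation cells (authors' FDR = 0.00687) than in cervical loop cells. Lgr6, a receptor of skin stem cells, had authors' means of 7.49, 16.4 and 38.9, and was 2.37-fold higher in maturation than in the secretory stage (authors' FDR = 0.0454) and 5.19-fold higher in maturation than in cervical loop cells (authors' FDR = 0.0184). Lgr5, the stem cell marker of gut, stood at 0.427, 0.105 and 0.102, below 1 in every stage. It was 4.07-fold lower in secretory than in cervical loop cells (authors' FDR = 0.0427), or 1.29-fold with 1 added to both means. Rnf43, the ubiquitin ligase that clears Frizzled, had authors' means of 7.84, 10.7 and 9.49 and passed in no pair.

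Among the secreted or membrane inhibitors, some genes were highest in the cervical loop and others in maturation, while Dkk4, Sfrp1 and Sfrp4 passed as neither. Of 11 genes, 2 rose and 4 fell in secretory against cervical loop cells, 5 rose and 2 fell in maturation against secretory cells, and 4 rose and 4 fell in maturation against cervical loop cells. Sfrp2, a Wnt-binding protein abundant in mesenchyme and progenitors, had authors' means of 809, 54.6 and 7.62 in cervical loop, secretory and maturation cells. It was 14.8-fold lower in secretory than in cervical loop cells (authors' FDR = 0.000979) and 7.17-fold lower in maturation than in secretory cells (authors' FDR = 0.00203). Sfrp5, known in the mouse from the cervical loop epithelium, had authors' means of 15.3, 0.312 and 0.968. It was 15.8-fold lower in maturation than in cervical loop cells (authors' FDR = 0.000158) and 3.11-fold higher in maturation than in the secretory stage (authors' FDR = 0.00473), or 8.28-fold and 1.5-fold with 1 added to both means.

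Notum, the enzyme that strips the lipid from Wnt proteins, had authors' means of 10.4, 0.538 and 0.265. It was 19.2-fold lower in secretory cells (authors' FDR = 0.00162) and 39.1-fold lower in maturation cells (authors' FDR = 0.000503) than in cervical loop cells, or 7.38-fold and 8.98-fold with 1 added to both means. Dkk1, which blocks Lrp5 and Lrp6, had authors' means of 13.9, 1.32 and 0.1001. It was 10.6-fold lower in secretory than in cervical loop cells (authors' FDR = 0.0218), or 6.45-fold with 1 added to both means, and 13.6-fold lower in maturation than in cervical loop cells with 1 added to both means (authors' FDR = 0.00216). Beside the genes that were high in the cervical loop, of 8 odontoblast and bone markers 0 passed in secretory against cervical loop cells, and their median log2 ratio was -1.26. In maturation against cervical loop cells 2 of the 8, Dspp and Phex, were lower, 0 were higher, and the median log2 ratio was -1.70. The mesenchyme markers had a median log2 ratio of -0.28 in secretory against cervical loop cells, with 1 higher and 3 lower. In maturation against cervical loop cells it was 0.29, with 4 higher and 1 lower. The part of either list in the falls of Sfrp2, Notum, Dkk1 and the R-spondins was not tested.

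Dkk2 had the largest rise among the inhibitors that were highest in maturation. Like Dkk1 it binds Lrp5 and Lrp6, but it can also weakly activate them. Dkk2 had authors' means of 12.5, 20.4 and 76.0, a 3.72-fold rise in maturation over secretory cells (authors' FDR = 0.000292) and a 6.09-fold rise over cervical loop cells (authors' FDR = 7.91e-05). Apcdd1, a membrane inhibitor known from hair follicles, stood at 11.2, 13.1 and 28.0 (2.14-fold higher in maturation than in the secretory stage, authors' FDR = 0.00116). Wif1, which binds Wnt proteins outside the cell, stood at 43.5, 42.7 and 69.3 (1.62-fold higher in maturation than in the secretory stage, authors' FDR = 0.0176). Dkk3, a relative of Dkk1 with a less certain role, was 1.41-fold higher in maturation, at 51.9, than in secretory cells, at 36.8 (authors' FDR = 0.0136). Dkk4 was 1.37-fold lower in maturation, at 3.24, than in secretory cells, at 4.43 (authors' FDR = 0.0408). Sfrp1 (73.4, 51.0 and 52.9) and Sfrp4 (104, 92.9 and 64.4) passed in no pair.

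Of the feedback genes inside the cell, Axin2 alone passed. Axin2, a scaffold of the beta-catenin destruction complex and a widely used readout of Wnt signalling, had authors' means of 17.9, 19.7 and 5.36 in cervical loop, secretory and maturation cells. The first 2 stages did not differ past the threshold (authors' FDR = 0.721), and maturation was 3.67-fold lower than secretory cells (authors' FDR = 0.000736) and 3.34-fold lower than cervical loop cells (authors' FDR = 0.000518). Nkd1 (11.6, 11.4 and 10.5) and Nkd2 (25.3, 18.4 and 27.5), which bind Dishevelled and dampen the signal, passed in no pair. Whether the change of Axin2 differed from that of Nkd1 was not tested.

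TCF/LEF genes, which encode the DNA-binding partners of beta-catenin, followed different courses. Tcf7 fell at each step, with authors' means of 12.6, 5.54 and 1.40. It was 2.27-fold lower in secretory than in cervical loop cells (authors' FDR = 0.0084) and 3.96-fold lower in maturation than in secretory cells (authors' FDR = 0.000604). Tcf7l2 was highest in secretory cells, with authors' means of 12.8, 28.7 and 9.44, 2.24-fold higher than in cervical loop cells (authors' FDR = 0.00129) and 3.04-fold lower in maturation than in secretory cells (authors' FDR = 0.000329). Lef1, with authors' means of 9.03, 6.93 and 6.15, was 1.47-fold lower in maturation than in cervical loop cells (authors' FDR = 0.00972). Tcf7l1, which often acts as a repressor, had authors' means of 15.3, 13.8 and 11.6 and passed in no pair.

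Because several of these genes are known targets of TCF/LEF factors, their promoters were searched for the letters CTTTGAA and CTTTGAT on both strands. RefSeq promoters of the GRCr8 build, from 250 bases before to 50 bases after the start, were at hand for 37 of the 54 genes. The letters stood in 5 of the 37 (13.5%), against 8.73% of all 33469 promoters of that length. The looser form CTTTGNN, which contains both, stood in 16 of the 37 (43.2%), against 53.6% of all promoters. The 33469 promoters were not limited to the 16516 genes of the authors' table, whereas the 37 belong to measured genes, so these shares rest on unlike sets. A match describes letters and not a bound site. All 5 promoters with a match are shown. They belong to Axin2, Tcf7, Dkk1 and Fzd7, which were lower in maturation than in cervical loop cells, and to Nkd1, which passed in no pair. In that pair 40.7% of the 54 genes and 33.7% of all genes were lower. Whether a match goes with a fall was not tested, and Notum, Rspo2 and Rspo4, which also fell, had no promoter at hand. Other genes that fell, among them Sfrp2, Sfrp5 and Wnt3a, had a promoter at hand without CTTTGAA or CTTTGAT. Capitals mark the matches, all on the strand of the gene, and each sequence runs 5′ to 3′ along the gene.
Axin2 lies on the plus strand at chr10:94398535-94398834, with matches starting at -232 and -132 from the start.
Axin2: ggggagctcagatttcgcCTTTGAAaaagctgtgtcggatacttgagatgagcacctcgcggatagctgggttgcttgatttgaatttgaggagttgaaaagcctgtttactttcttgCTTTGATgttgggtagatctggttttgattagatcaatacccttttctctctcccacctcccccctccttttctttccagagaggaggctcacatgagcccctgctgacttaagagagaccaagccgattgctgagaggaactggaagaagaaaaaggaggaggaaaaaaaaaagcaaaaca
Tcf7 lies on the minus strand at chr10:36954230-36954529, with a match starting at -4.
Tcf7: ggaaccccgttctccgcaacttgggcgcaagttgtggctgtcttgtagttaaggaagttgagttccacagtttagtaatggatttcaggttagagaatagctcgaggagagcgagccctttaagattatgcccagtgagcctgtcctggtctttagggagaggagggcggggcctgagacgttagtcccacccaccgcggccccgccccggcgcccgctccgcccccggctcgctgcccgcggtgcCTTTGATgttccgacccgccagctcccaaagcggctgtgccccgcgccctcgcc
Dkk1 lies on the minus strand at chr1:237798601-237798900, with a match starting at -96.
Dkk1: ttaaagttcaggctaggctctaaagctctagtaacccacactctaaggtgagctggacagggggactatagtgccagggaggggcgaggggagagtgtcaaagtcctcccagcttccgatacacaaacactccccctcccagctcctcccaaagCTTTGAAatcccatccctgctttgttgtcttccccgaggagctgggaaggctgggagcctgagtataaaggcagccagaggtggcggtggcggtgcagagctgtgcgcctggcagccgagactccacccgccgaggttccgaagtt
Fzd7 lies on the plus strand at chr9:68425288-68425587, with a match starting at -1.
Fzd7: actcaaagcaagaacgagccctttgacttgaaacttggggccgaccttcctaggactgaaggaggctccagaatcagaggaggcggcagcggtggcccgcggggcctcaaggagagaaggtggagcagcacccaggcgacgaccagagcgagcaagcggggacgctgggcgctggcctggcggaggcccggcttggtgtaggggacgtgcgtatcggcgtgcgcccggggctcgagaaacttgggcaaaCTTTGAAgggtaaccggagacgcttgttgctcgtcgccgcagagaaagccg
Nkd1 lies on the minus strand at chr19:34722797-34723096, with a match starting at -141.
Nkd1: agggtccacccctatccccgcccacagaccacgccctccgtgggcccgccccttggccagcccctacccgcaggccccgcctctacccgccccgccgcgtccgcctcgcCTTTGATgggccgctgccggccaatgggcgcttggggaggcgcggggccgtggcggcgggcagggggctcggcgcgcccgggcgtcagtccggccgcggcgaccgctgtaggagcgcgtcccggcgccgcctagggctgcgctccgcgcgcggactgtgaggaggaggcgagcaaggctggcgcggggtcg
Genes with a match thus followed different courses: Axin2 fell after the secretory stage, Tcf7 and Fzd7 fell at each step, and Dkk1 fell in the secretory stage.

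The deposited isoform tables listed 2 or more transcripts for 5 of the 54 genes, 11 transcripts in all, and tested for each gene whether the make-up of its transcripts changed. For these tables the FDR was computed here from the authors' p-values. Wnt5b passed in maturation against cervical loop cells (FDR = 0.00352), beside 2.79% of the genes in that table. Transcript Wnt5b-202 made up 1.42% of the summed transcript means in maturation cells, against 17.1% in cervical loop cells. It stood at 0.0328 in maturation cells and 0.596 in cervical loop cells (FDR = 2.47e-05), while Wnt5b-201 stood at 2.28 and 2.88 (FDR = 0.634). All these levels are low, and the maturation value of Wnt5b-202 lies under the floor of 0.1. In maturation against secretory cells the make-up of Wnt5b did not pass (FDR = 0.12), nor did it in secretory against cervical loop cells (FDR = 0.812), beside 1.8% and 1.19% of genes that passed in those tables. In secretory against cervical loop cells neither Wnt5b transcript passed by itself (FDR = 0.449 and FDR = 0.128). The gene had passed there (authors' FDR = 0.0233). Lrp6, Rspo2, Wnt4 and Wnt7b passed for make-up in no pair. Wnt7b had passed at each step as a gene. Neither of its transcripts passed in secretory against cervical loop cells (FDR = 0.7 and FDR = 0.594). The same held in maturation against secretory cells (FDR = 0.431 and FDR = 0.256). Both passed in maturation against cervical loop cells (FDR = 0.0484 and FDR = 0.0146). Neither Lrp6 transcript passed in maturation against secretory cells (FDR = 0.227 and FDR = 0.153).

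For Wnt4 both transcripts rose. Wnt4-201 was 4.58-fold higher in maturation cells, at 11.5, than in cervical loop cells, at 2.51 (FDR = 0.000581), and Wnt4-202 was 2.39-fold higher, at 49.9 against 20.9 (FDR = 0.00943). Wnt4-201 made up 18.7% of the gene's summed transcript means in maturation and 10.7% in cervical loop cells, a difference in make-up that did not pass (FDR = 0.432).

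**Figure D4:**
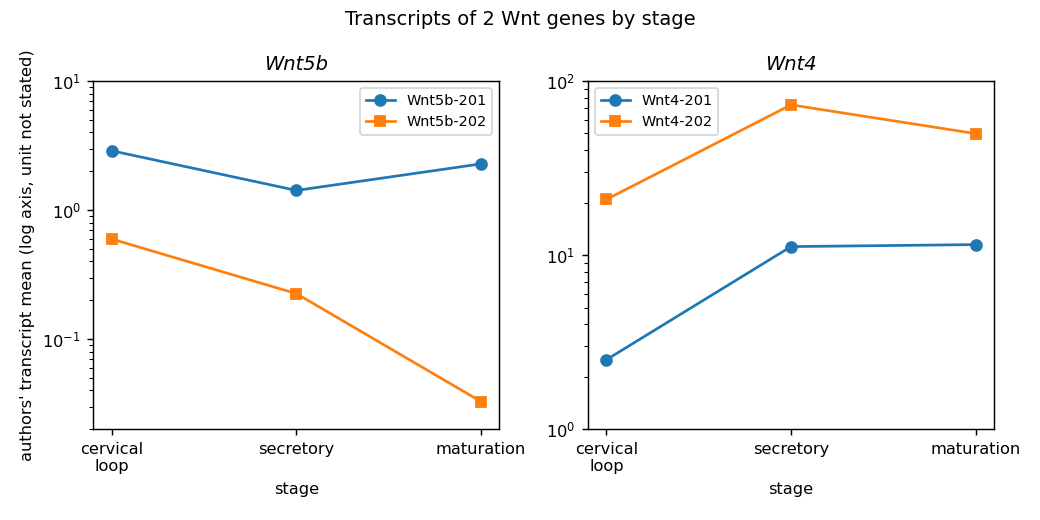
Authors' means of the 2 listed transcripts of Wnt5b (left) and of Wnt4 (right) by stage on log axes; cervical loop and maturation values come from the table of that pair and secretory values from the table of maturation against secretory cells. Wnt5b-202 drops to 0.0328 in maturation while Wnt5b-201 stays between 1.42 and 2.88.

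Genes of the pathway outside these families were counted in 6 lists. The first list held planar polarity genes, whose proteins orient cells within a sheet, and other genes of signalling without beta-catenin. Of 17 measured, 8 rose and 2 fell in secretory against cervical loop cells. In maturation against secretory cells 5 rose (Daam1, Rhoa, Rac1, Nfatc1 and Camk2d) and 10 fell, among them Vangl2 and Prickle1. In maturation against cervical loop cells 4 rose and 7 fell. In the same pairs 16.5%, 21.8% and 24.1% of all genes were higher, and 25.2%, 21.1% and 33.7% were lower. Vangl2, a core membrane protein of planar polarity, had authors' means of 60.1, 149 and 38.6 in cervical loop, secretory and maturation cells (2.48-fold higher in secretory than in cervical loop cells, authors' FDR = 0.00149, and 3.86-fold lower in maturation than in secretory cells, authors' FDR = 0.000362). Prickle1, another core member, had authors' means of 43.3, 101 and 34.5, and the Wnt receptor gene Ryk rose 1.85-fold in secretory over cervical loop cells (authors' FDR = 0.00082). Daam1, which links Dishevelled to actin, was 1.43-fold higher in maturation than in the secretory stage (authors' FDR = 0.0004). The median log2 ratio of the list was 0.20 in secretory against cervical loop cells, beside -0.14 over all genes, and -0.53 in maturation against secretory cells, beside 0.0046.

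Other secreted or surface regulators included genes with large falls. Of 15 measured, 6 rose and 6 fell in secretory against cervical loop cells, 2 rose and 9 fell in maturation against secretory cells, and 1 rose and 8 fell in maturation against cervical loop cells. Sostdc1, a tooth inhibitor of Wnt and BMP signals, had authors' means of 93.0, 21.6 and 2.25 (41.4-fold lower in maturation than in cervical loop cells, authors' FDR = 0.000207). Kremen1, the receptor that helps Dkk1 remove Lrp6, was highest in secretory cells, with authors' means of 47.9, 112 and 46.5 (2.35-fold higher in secretory than in cervical loop cells, authors' FDR = 0.000855). The glypican gene Gpc3 fell 11.2-fold in maturation against secretory cells (authors' FDR = 0.00023).

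Genes whose products act inside the cell were counted next. Of 22 genes of the destruction complex, Dishevelled and beta-catenin, 5 rose and 3 fell in secretory against cervical loop cells, 3 rose and 10 fell in maturation against secretory cells, and 2 rose and 5 fell in maturation against cervical loop cells. Tnks, whose product marks Axin for destruction, was 1.53-fold higher in secretory than in cervical loop cells (authors' FDR = 0.00498) and 1.69-fold lower in maturation than in secretory cells (authors' FDR = 0.0016). Of 14 nuclear cofactors, 1 rose and 5 fell in secretory against cervical loop cells, 2 rose and 8 fell in maturation against secretory cells, and 1 rose and 9 fell in maturation against cervical loop cells, where 24.1% of all genes were higher and 33.7% lower. Their median log2 ratio in the last pair was -0.41, beside -0.12 over all genes. Bcl9 and Pygo1, which join beta-catenin to the transcription machinery, were 2.61-fold and 2.52-fold lower there (authors' FDR = 0.000102 and authors' FDR = 0.000224). Of 6 genes for Wnt secretion, 3 rose and 1 fell in secretory against cervical loop cells, 0 rose and 2 fell in maturation against secretory cells, and 2 rose and 1 fell in maturation against cervical loop cells. Wls, the carrier of Wnt proteins to the surface, had authors' means of 105, 154 and 116 (1.47-fold higher in secretory than in cervical loop cells, authors' FDR = 0.0135, and 1.33-fold lower in maturation than in secretory cells, authors' FDR = 0.0305).

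Other reported Wnt targets were counted last. Of 17 measured, 4 rose and 5 fell in secretory against cervical loop cells, 5 rose and 4 fell in maturation against secretory cells, and 6 rose and 6 fell in maturation against cervical loop cells. The shares of all genes in these pairs were 16.5%, 21.8% and 24.1% higher and 25.2%, 21.1% and 33.7% lower. The cyclin gene Ccnd1 was 5.89-fold lower in maturation than in cervical loop cells (authors' FDR = 0.000169), while Cd44, a hyaluronan receptor, was 4.29-fold higher (authors' FDR = 0.000277). These lists were written with earlier results of the same data known, and their counts are descriptions.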

How the data were processed

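RNA of 3 stages was sequenced in single-end reads of 75 bases, 25000000 per library, from RNA with an integrity number of 7 or more, per the labels. The submitters' processing notes name rn6 as the rat build, Partek, and STAR 2.5.3a. How reads were counted and scaled, and with which model, is not stated. The authors deposited 1 least-squares mean per gene and stage, per the file headers, and for each pair of stages a p-value, an FDR and a ratio. The unit of the means is not named. Reads per gene are not given either, so no counting interval can be given. The table's total column was 3.99, 3.99 and 5.01 times the means of the 3 stages in order, near 4, 4 and 5 libraries, while the labels name 5 rats and 1 cervical loop library left out. The scale on which the authors tested is not stated, so a ratio of means and its p-value may measure different quantities.

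The authors' p-values were adjusted again over all 16516 genes (Benjamini-Hochberg, threshold 0.05, pandas 2.3.3), which returned the authors' FDR within rounding and was tested on simulated data. A direction was read from the difference between the means. A mean of 0.1 or less gave no fold. Every member is accounted for: 51 of 54 had a mean of 1 or more in some stage, and values are given for those that passed and for others that complete a family. Genes of the other pathway lists were named from the 3 smallest p-values of a list and pair. In the list with planar polarity genes, all 5 that rose in maturation against secretory cells were named as well. Markers of stages and cell types (Mki67, Amelx, Klk4, Col1a1, Krt14, Krt18, Epcam, Tnni1, Rgs5, Cspg4, Acta2, Tagln, Dspp and Phex) were named as checks, outside that rule and with their values known. Members and lists were chosen with earlier results of these data known. Alternatives were a filter on low means, a fold limit of 2, a pseudocount of 1, centring, the stage lists, the authors' FDR and scaling to stage totals.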

Additional observations from a re-analysis of the deposited data

How the results depend on the processing

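No paired analysis was possible because each stage is deposited as 1 mean per gene, and for the same reason no replicate could be left out. Counts of the 54 genes that passed were within 1.5 times the reported counts under every alternative except 1. With a ratio of at least 2 required as well, 19 genes passed in maturation against secretory cells (30 without it), 11 of them lower (19 without it). Scaling each stage to the sum of its means, an alternative added after seeing the data, turned the direction of 3 genes that had passed: the log2 ratio became -0.16 for Fzd4 and -0.067 for Dkk3 in secretory against cervical loop cells, and 0.044 for Lrp5 in maturation against secretory cells. With the means of the stage lists, with centring on the median of all genes and with a pseudocount of 1, no gene that had passed changed direction. A pseudocount of 1 shrank the folds of genes with a mean under 1.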

Other observations

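For a few genes the size of a fold and its p-value ran apart. Lgr6 was 2.19-fold higher in secretory cells, at 16.4, than in cervical loop cells, at 7.49, without passing (authors' FDR = 0.655), while Ror2 passed in that pair at 1.32-fold (authors' FDR = 0.0427). Wnt2 was 16.9-fold higher in secretory cells, at 2.10, than in cervical loop cells, at 0.124, without passing (authors' FDR = 0.0828), but its cervical loop mean lay near the floor of 0.1 and the fold was 2.76 with 1 added to both means. Values of single libraries were not analysed here.

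The secretory level of Rspo2 differed between tables. Its 3 transcripts summed to 1.94 in the table of secretory against cervical loop cells and to 0.279 in the table of maturation against secretory cells, beside 0.340 in the gene table. For Lrp6 the same 2 sums were 79.2 and 79.0. At the transcript level, Rspo2-203 was 4.97-fold lower in secretory than in cervical loop cells (FDR = 0.00241, computed here from the authors' p-values).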
